A study of Mus musculus with 9 samples.

Results

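Integrins are receptors of an alpha and a beta subunit through which a cell holds the extracellular matrix, and focal adhesion proteins join their inner ends to actin and pass signals on through kinases. The alpha subunit largely sets which ligand is bound: laminin, collagen, proteins that carry the RGD motif such as fibronectin and vitronectin, or ligands such as VCAM1. In the adult subventricular zone (SVZ), neural stem cells (NSCs) touch a matrix rich in laminin and send processes to blood vessels, and the receptor made of Itga6 and Itgb1 is a laminin receptor of these cells.

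The genes described here are 38 mouse genes named by symbol: 12 integrin alpha subunits, 7 beta subunits and 19 adhesion proteins. All 38 are among the 55704 genes of the deposited table, and their levels were compared between 3 groups of 3 bulk RNA-seq libraries. NSCs came from the SVZ of C57BL/6 mice with no genetic change named, aged 8 to 9 weeks, with 2 female and 2 male mice pooled for an isolation. After at least 3 passages they were plated on poly-L-ornithine and laminin and held in bFGF and EGF for 16 to 18 hours, so every group stood on a laminin substrate. The bFGF/EGF libraries were labelled day 0 of treatment, and the bFGF/BMP4 and the BMP4 libraries day 6 in bFGF with BMP4 or in BMP4 alone, each factor at 20 ng/mL. Treatment and time in culture therefore cannot be told apart in a comparison with bFGF/EGF, whereas the bFGF/BMP4 and BMP4 groups were of the same day and differed in bFGF. Whether the 3 libraries of a group came from separate isolations is not stated in the labels, and the p-values measure the spread between these libraries, which may be technical.

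Levels are given in FPKM, fragments scaled by gene length and by the mapped fragments of the library, a scale on which genes may be compared per length. The fragments on genes, rebuilt from FPKM, ran from 15892854 to 17419822 a library. This is a lower bound, since each gene's number is fixed only up to a whole factor. Summed FPKM ran from 256230 (bFGF/EGF replicate 3) to 326302 (BMP4 replicate 2). In correlations between libraries none stood apart, with 0.95 to 0.964 within a group and 0.81 to 0.915 between groups. The 6 neural stem cell markers summed to 1670 to 1770 FPKM in bFGF/EGF, 681 to 786 in bFGF/BMP4 and 1410 to 1880 in BMP4. Compared with bFGF/EGF, 1 was higher and 3 lower in bFGF/BMP4, beside 16.5% and 14.1% of all genes tested. In BMP4, 1 was higher and 1 lower, beside 21.3% and 15.4% of all genes tested. With 6 markers, 1 in each direction is too few to set them apart from all genes. Among these markers Sox2 lay between 121 and 202 FPKM in all 9 libraries. Nes had group means of 151, 3.55 and 15.8 FPKM in that order, Vim 677, 167 and 892, and Fabp7 655, 272 and 484. Slc1a3 (73.6, 130 and 113 FPKM) and Hes5 (1.44, 26.9 and 7.64) went the other way, with their highest means in bFGF/BMP4. The sums are mostly Vim, Fabp7 and Sox2. Of 8 microglia markers 4 (C1qa, C1qb, Tyrobp and Itgam) were at 0 in every library, and their summed level was at most 0.158 FPKM. The 5 endothelial markers, with Cldn5 at 0 throughout, summed to 0.101 to 0.237, 1.13 to 1.74 and 2.85 to 4.13 FPKM. That sum was mostly Kdr (means of 0.152, 1.18 and 3.31 FPKM). Pecam1 (0.0167, 0.230 and 0.0428) was instead highest in bFGF/BMP4. Cdh5 (at most 0.0148 FPKM) and Tie1 (at most 0.106 FPKM) stayed near 0, too low to order the treated groups. The 6 mural and fibroblast markers summed to 0.146 to 0.238, 0.669 to 0.997 and 1.39 to 2.02 FPKM. Rgs5 and Pdgfrb followed that order, Col1a1 did not (0.118, 0.105 and 0.287), and Kcnj8, Dcn and Lum stayed under 0.1 FPKM. Both sums were lowest in bFGF/EGF and highest in BMP4, as Itga2 and Itga3 were in group means, but not every marker was. Of the 5 oligodendrocyte markers 2 were tested, of which 1 was higher in each of the 3 comparisons. Of all genes tested, 16.5% and 21.3% were higher in bFGF/BMP4 and BMP4 than in bFGF/EGF, and 8.41% in BMP4 than in bFGF/BMP4. Mag and Mobp stayed under 0.1 FPKM. The astrocyte markers (6 genes) summed to 129 to 176 FPKM in bFGF/EGF, 492 to 526 in bFGF/BMP4 and 3230 to 4100 in BMP4. Gfap (0.0926, 19.4 and 2566 FPKM), Aqp4 and Gja1 followed that order. S100b (0.624, 55.1 and 40.1) and Slc1a2 (12.6, 175 and 65.5) were highest in bFGF/BMP4, and Aldh1l1 (135, 24.2 and 58.1) in bFGF/EGF. The 5 markers of oligodendrocyte precursors summed to 1560 to 2260, 1310 to 1800 and 216 to 423 FPKM in the same order. The 6 neuroblast and neuron markers summed to 25.2 to 32.1, 16.6 to 22.4 and 105 to 185 FPKM, mostly Tubb3 (means of 20.3, 17.0 and 145 FPKM). The means of Snap25 (2.60 ± 1.33, 1.20 ± 0.50 and 4.38 ± 1.29), Dcx (0.187 ± 0.067, 0.116 ± 0.008 and 0.904 ± 0.938) and Stmn2 (0.080 ± 0.058, 0.012 ± 0.021 and 0.106 ± 0.094) were also highest in BMP4 (SD, n = 3). Their spread there was wide, and Stmn2 was near 0. Syt1 (3.83, 0.137 and 0.371) was highest in bFGF/EGF. Rbfox3 (0.989, 1.57 and 0.522) was lowest in BMP4. The 5 ependymal markers, with Tmem212 at 0 in all libraries, summed to 7.87 to 12.4, 10.4 to 11.4 and 58.0 to 70.1 FPKM. The part of these markers' cell types in the results below was not tested, and in bulk RNA fewer cells of a type and less RNA per cell cannot be told apart.

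Of the 38 genes, 33 had a mean of at least 0.1 FPKM and were tested. Itga11, Itgb4, Itgb6, Itgb7 and Fermt1 were not. Fermt1, the kindlin of epithelia, was listed at 0 in every library, and Itgb6 was above 0 in 1 library, at 0.00868 FPKM. Itga11 reached at most 0.0945 FPKM, Itgb4 0.0887 FPKM and Itgb7 0.156 FPKM. Among those tested, 30 were at 0.1 FPKM or more in every library, and Itga1, Itga4 and Itga10 passed with at least 1 library under it. A gene is said to have risen or fallen where limma on log2(FPKM + 0.1) gave an adjusted p of at most 0.05 and a change of at least 2-fold. The genes that the results turn on most are Itga4 (chromosome 2, 79085660 to 79163467, plus strand), Itgav (chromosome 2, 83554403 to 83637260, plus strand), Itga7 (chromosome 10, 128769621 to 128794169, plus strand), Itgb3 (chromosome 11, 104498826 to 104561302, plus strand), Nedd9 (chromosome 13, 41463057 to 41640838, minus strand) and Zyx (chromosome 6, 42301575 to 42339894, plus strand), by GENCODE vM39 on GRCm39, the build of the alignment. Fold differences between means are of the FPKM itself, and log2 fold changes are on the log2(FPKM + 0.1) scale, which understates the change of low genes.

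In bFGF/BMP4 compared with bFGF/EGF, 8 of the 33 genes rose and 6 fell, which is 24.2% and 18.2%, where 16.5% and 14.1% of all 20207 genes tested did. In BMP4 compared with bFGF/EGF, 9 rose and 7 fell (27.3% and 21.2%, against 21.3% and 15.4% of all genes). In BMP4 compared with bFGF/BMP4, 6 rose and 4 fell (18.2% and 12.1%, against 8.41% and 5.14%). With the adjusted p alone, the genes higher and lower were 13 and 10, 14 and 11, and 9 and 7 in these comparisons, beside 25.0% and 23.6%, 29.6% and 25.3%, and 12.2% and 8.89% of all genes. The median log2 fold changes of the 33 genes were 0.24, 0.37 and -0.13 in these comparisons, beside 0.06, 0.10 and 0.00 over all genes tested. The list thus moved in both directions in each comparison, and 23 of its genes (69.7%) changed in at least 1 of them, beside 44.7% of all genes tested. The other 10 changed in none: Itga6, Itgb1, Tln1, Tln2, Fermt2, Vcl, Ilk, Parva, Lims1 and Ptk2. The integrin subunits accounted for 8 of the 10 calls between BMP4 and bFGF/BMP4 (4 higher and 4 lower of 15 tested), and the adhesion proteins for 2 higher of 18 tested.

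**Figure D1:**
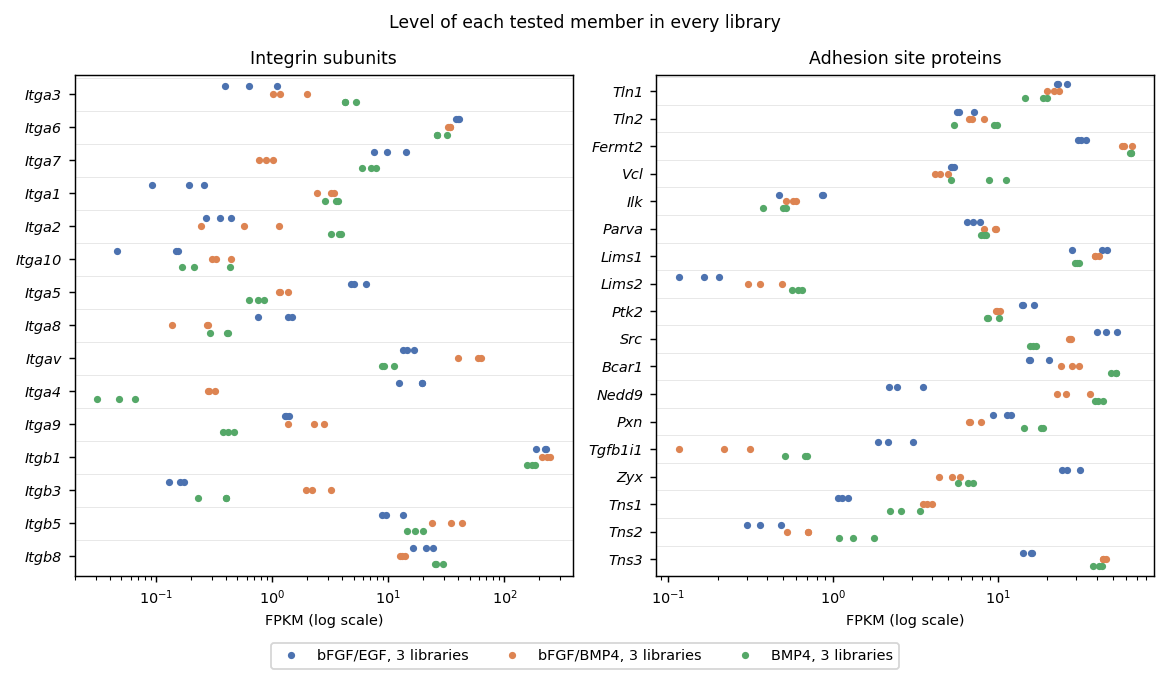
FPKM on a log axis for the 33 tested genes, with each point a library and colors for the 3 treatments. Itgb1 lies between 156 and 249 FPKM in all 9 libraries, while the bFGF/EGF libraries of Itga4 lie between 12.3 and 19.5 FPKM and its BMP4 libraries under 0.1 FPKM.

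**Figure D2:**
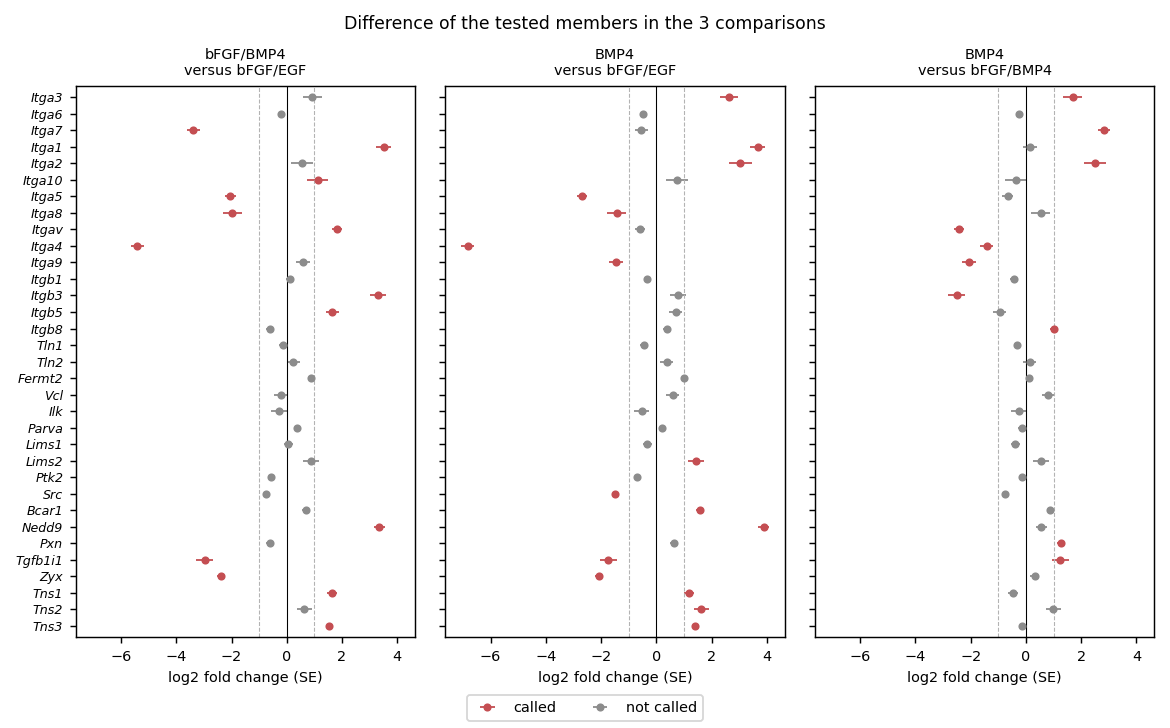
Log2 fold change on the log2(FPKM + 0.1) scale (point) with its standard error (bar) for the 33 tested genes in the 3 comparisons, in red where the gene passed the threshold, with dashed lines at a 2-fold change. Itga4 has the lowest values in both comparisons with bFGF/EGF, -5.41 and -6.83, and Nedd9 rose in both.

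Among the laminin receptor subunits, Itga6 was the most abundant alpha subunit of the bFGF/EGF and BMP4 libraries and did not change. Its bFGF/EGF libraries held 40.3, 38.1 and 39.7 FPKM, with 34.0, 34.3 and 32.6 in the bFGF/BMP4 libraries and 26.5, 26.0 and 31.9 in the BMP4 libraries. The groups did not overlap, but the differences were small: the log2 fold change was -0.23 in bFGF/BMP4 and -0.49 in BMP4 compared with bFGF/EGF (adjusted p = 0.11 and 0.0032, limma), less than 2-fold. Itga7, the laminin-binding subunit best known from muscle, behaved differently, with 7.48, 14.3 and 9.69 FPKM in bFGF/EGF, 1.01, 0.886 and 0.765 in bFGF/BMP4 and 7.77, 7.06 and 5.96 in BMP4. The bFGF/BMP4 libraries were all below the others, by 11.8-fold between means against bFGF/EGF (log2 fold change -3.38, SE 0.23, adjusted p = 2.2e-06, limma). Itga7 was 7.82-fold higher in BMP4 than in bFGF/BMP4 (log2 fold change 2.83, SE 0.23, adjusted p = 2.4e-05, limma), and in BMP4 it overlapped the bFGF/EGF libraries (-0.55, adjusted p = 0.065). Itga3, whose receptor with Itgb1 binds laminins of basement membranes, was at 0.391, 1.09 and 0.624 FPKM in bFGF/EGF, 1.97, 1.02 and 1.15 in bFGF/BMP4, and 5.25, 4.22 and 4.18 in BMP4. All BMP4 libraries lay above all others. Itga3 rose in BMP4 by a log2 fold change of 2.62 against bFGF/EGF and of 1.70 against bFGF/BMP4 (SE 0.34 each, adjusted p = 1.1e-04 and 0.0052, limma). Between bFGF/BMP4 and bFGF/EGF its log2 fold change was 0.93, under the 2-fold threshold, and it passed the threshold without replicate 2 of bFGF/EGF (1.26) or without replicate 2 of bFGF/BMP4 (1.10).

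Of the collagen receptor subunits, all 3 tested rose in at least 1 comparison, from low levels. Beside them, 44.7% of all genes changed in at least 1 comparison in either direction, and the call of Itga10 did not hold under several alternatives. Itga1 was at 0.193, 0.0918 and 0.256 FPKM in bFGF/EGF, 2.44, 3.39 and 3.2 in bFGF/BMP4 and 3.71, 2.85 and 3.51 in BMP4. It rose in both treated groups, 16.7-fold and 18.6-fold between means (log2 fold changes 3.51 and 3.66, SE 0.26, adjusted p = 4.3e-06 and 2.2e-06, limma), and the treated groups overlapped (0.16, SE 0.26). Itga2 rose in BMP4 against both other groups: its libraries were at 0.437, 0.355 and 0.270 FPKM in bFGF/EGF, 0.244, 1.13 and 0.572 in bFGF/BMP4 and 3.90, 3.19 and 3.75 in BMP4. BMP4 was 10.2-fold above bFGF/EGF and 5.56-fold above bFGF/BMP4 between means (log2 fold changes 3.04 and 2.49, SE 0.40, adjusted p = 1.3e-04 and 0.0016, limma). The bFGF/BMP4 libraries of Itga2 spread from 0.244 to 1.13 FPKM, around the bFGF/EGF level (0.55, SE 0.40, adjusted p = 0.29), and without replicate 1 of bFGF/BMP4 the change passed the threshold at 1.02. Itga10 had means of 0.115, 0.355 and 0.268 FPKM from 4 to 36 fragments per library. Its rise in bFGF/BMP4 (log2 fold change 1.11, SE 0.39, adjusted p = 0.038, limma) was lost without replicate 1 of bFGF/EGF (0.85) and without replicate 1, 2 or 3 of bFGF/BMP4 (1.16, 0.98 and 1.20), and also with no filter on low values (1.11). In the annotation Itga1 and Itga2 share 10.2% and 6.2% of their exon bases with Mocs2 on the opposite strand (9.41 FPKM on average), and Itga10 shares 33.5% with Gm42957, a coding gene on its own strand at 0.002 FPKM. Use of the strand in counting is not given in the sources used here.

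The RGD-binding subunits went in opposite directions. Itgav, the alpha subunit that pairs with Itgb1, Itgb3, Itgb5, Itgb6 and Itgb8 in receptors for vitronectin, fibronectin and latent TGF-beta, was highest in bFGF/BMP4. Its levels were 14.5, 13.3 and 16.6 FPKM in bFGF/EGF, 39.7, 58.6 and 62.9 in bFGF/BMP4 and 9.13, 8.78 and 11.2 in BMP4. No groups overlapped: the lowest bFGF/BMP4 library was above every other library. The log2 fold change of Itgav was 1.83 from bFGF/EGF to bFGF/BMP4 (SE 0.18, adjusted p = 2.6e-05, limma) and -2.44 in BMP4 compared with bFGF/BMP4 (SE 0.18, adjusted p = 1.6e-05, limma), a 5.54-fold lower mean. In BMP4 compared with bFGF/EGF it was -0.60 (adjusted p = 0.017), less than 2-fold. Itga5, the fibronectin receptor subunit, was at 4.79, 6.35 and 5.0 FPKM in bFGF/EGF, 1.17, 1.15 and 1.35 in bFGF/BMP4 and 0.624, 0.851 and 0.750 in BMP4. It fell in both treated groups (log2 fold changes -2.04 and -2.70, SE 0.19, adjusted p = 1.7e-05 and 2.0e-06, limma), and the BMP4 libraries were the lowest, by less than 2-fold from bFGF/BMP4 (-0.66). Itga8, whose receptor binds fibronectin and nephronectin, had means of 1.20, 0.229 and 0.369 FPKM and fell in both treated groups as well (-1.97 and -1.44, SE 0.34, adjusted p = 8.5e-04 and 0.0047, limma).

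Itga4 was the gene of the list with the largest change. Its subunit pairs with Itgb1 to bind VCAM1 and a form of fibronectin, and it is known from leukocyte homing and from migrating neural crest and precursor cells. The bFGF/EGF libraries held it at 19.4, 12.3 and 19.5 FPKM, the bFGF/BMP4 libraries at 0.321, 0.280 and 0.287, and the BMP4 libraries at 0.0661, 0.0309 and 0.0477. The groups were far apart, with bFGF/EGF 57.8-fold above bFGF/BMP4 and 354-fold above BMP4 between means, the last from 7 to 15 fragments per BMP4 library. The log2 fold changes were -5.41 and -6.83 against bFGF/EGF and -1.42 between BMP4 and bFGF/BMP4 (SE 0.25, adjusted p = 1.9e-07, 3.0e-08 and 0.0022, limma). With a pseudocount of 1 the last was -0.31 and no longer passed. Of the 5 oligodendrocyte precursor markers, 4 fell in bFGF/BMP4 and 5 in BMP4 against bFGF/EGF, beside 14.1% and 15.4% of all genes. Itga4 fell in both as well. The median log2 fold changes of the 5 markers were -1.78 and -2.33. Their means in bFGF/EGF, bFGF/BMP4 and BMP4 were 0.767, 0.134 and 0.118 FPKM for Pdgfra, 13.2, 3.77 and 3.27 for Cspg4, 565, 246 and 31.7 for Olig2, and 1352, 1254 and 275 for Olig1. Sox10, a defining marker, had a mean of 0.603 FPKM in bFGF/EGF and was at 0 in the other libraries. It passed the filter on low values only through bFGF/EGF, so its part in these counts and medians is not read as a result. The part of such cells in the fall of Itga4 was not tested. The defining markers of microglia, cells of a lineage that carries Itga4, were at or near 0 as given above. Itga4 shares 20.8% of its exon bases with Cerkl on the opposite strand, at 0.028 FPKM on average. Itga9, the related subunit that binds tenascin C and osteopontin, did not change in bFGF/BMP4 (0.59, adjusted p = 0.09, limma) and fell in BMP4: it was at 1.38, 1.32 and 1.30 FPKM in bFGF/EGF, 1.36, 2.76 and 2.28 in bFGF/BMP4 and 0.376, 0.466 and 0.418 in BMP4. The BMP4 libraries were all below the rest, with log2 fold changes of -1.46 against bFGF/EGF and -2.05 against bFGF/BMP4 (SE 0.26, adjusted p = 9.1e-04 and 3.8e-04, limma).

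Itgb1, the beta subunit shared by the laminin, collagen, fibronectin and VCAM1 receptors, was the most abundant gene of the list in every group and did not change. It was at 229, 188 and 225 FPKM in bFGF/EGF, 210, 232 and 249 in bFGF/BMP4 and 156, 185 and 173 in BMP4. The BMP4 libraries were the lowest without overlap, by log2 fold changes of -0.32 and -0.43 (SE 0.14, adjusted p = 0.074 and 0.053, limma). The other 3 beta subunits tested all pair with Itgav. Itgb3, of the vitronectin and fibrinogen receptor, was at 0.130, 0.161 and 0.173 FPKM in bFGF/EGF, 1.93, 2.18 and 3.19 in bFGF/BMP4 and 0.397, 0.230 and 0.401 in BMP4. As for Itgav, its bFGF/BMP4 libraries lay above all others, with log2 fold changes of 3.29 against bFGF/EGF (SE 0.29, adjusted p = 1.3e-05, limma) and -2.51 in BMP4 compared with bFGF/BMP4 (adjusted p = 2.2e-04). Itgb5, of a second vitronectin receptor, was at 8.77, 13.3 and 9.52 FPKM in bFGF/EGF, 23.7, 34.3 and 43.4 in bFGF/BMP4 and 14.3, 16.9 and 19.9 in BMP4. It rose in bFGF/BMP4 (1.65, SE 0.23, adjusted p = 2.6e-04, limma). Between BMP4 and bFGF/BMP4 the libraries of Itgb5 did not overlap, but the log2 fold change of -0.95 was under 2-fold; without replicate 1 of bFGF/BMP4 it was -1.19 and without replicate 3 of BMP4 -1.07, both past the threshold. Itgb8, whose receptor with Itgav releases TGF-beta from its latent form, had a different order, with its highest level in BMP4. It was at 24.1, 16.4 and 21.0 FPKM in bFGF/EGF, 13.9, 13.2 and 12.5 in bFGF/BMP4 and 29.6, 25 and 25.6 in BMP4. Its bFGF/BMP4 libraries were the lowest, and it was higher in BMP4 by a log2 fold change of 1.01 (SE 0.15, adjusted p = 8.0e-04, limma). That change sits at the 2-fold threshold and was lost without replicate 3 of bFGF/BMP4 (0.97), without replicate 1 of BMP4 (0.94), with the TPM scale (0.94) and with median-ratio scaling. Against bFGF/EGF, Itgb8 differed by less than 2-fold in both treated groups (-0.62 and 0.39).

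The promoters of Itgav and Itgb5 are shown because both genes were highest in bFGF/BMP4, as was Itgb3, named only. Each is 300 bases of RefSeq sequence, from 250 bases before the gene's start to 50 after it, in build GRCm38.p6, at chr2:83724147-83724446 on the plus strand (67.3% G or C) and at chr16:33829415-33829714 on the plus strand (65.7% G or C). No base is in capitals, since neither held a match to the motifs searched.
Itgav: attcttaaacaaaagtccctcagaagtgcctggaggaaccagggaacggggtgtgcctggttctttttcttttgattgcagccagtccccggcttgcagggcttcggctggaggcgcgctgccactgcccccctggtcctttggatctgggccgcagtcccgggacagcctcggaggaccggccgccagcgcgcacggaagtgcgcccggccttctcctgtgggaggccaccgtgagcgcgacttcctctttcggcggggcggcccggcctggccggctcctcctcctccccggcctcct
Itgb5: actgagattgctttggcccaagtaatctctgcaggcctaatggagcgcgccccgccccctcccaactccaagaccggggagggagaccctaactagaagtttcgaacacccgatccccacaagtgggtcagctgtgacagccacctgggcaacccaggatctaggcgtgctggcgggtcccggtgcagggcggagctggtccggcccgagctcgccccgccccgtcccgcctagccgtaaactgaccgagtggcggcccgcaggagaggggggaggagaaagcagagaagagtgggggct

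Motifs were searched on both strands in these windows for 28 of the 38 genes. GGCGCC, known as a binding sequence of the SMAD proteins of BMP signaling, was found for Itgb1, Vcl, Ilk and Src and in 11.9% of all 32851 promoters of the table. TGANTCA, a pattern that includes the AP-1 site but allows any middle base, was found for Itga3, Itga9 and Zyx and in 7.81% of promoters. The CArG box, the site of serum response factor, was found for Itgb6, Fermt2 and Vcl and in 1.63%. None of these motifs contains another. Each match is a description of the window only. Itga6, Itga7, Itgb3, Itgb4, Tln2, Parva, Lims2, Ptk2, Pxn and Tgfb1i1 had no entry.

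Because the alpha subunits differ in ligand and share few beta subunits, the composition of each library was also described, as the share of a subunit in the summed FPKM of its kind. The 12 alpha subunits summed to 91.0 ± 3.2 FPKM for bFGF/EGF, 97.6 ± 12.9 for bFGF/BMP4 and 58.2 ± 4.2 for BMP4 (SD, n = 3 each), and the 7 beta subunits to 245 ± 24, 280 ± 29 and 215 ± 13 FPKM. The BMP4 libraries thus held less alpha subunit RNA than any other library (54.0 to 62.4 FPKM against 82.7 to 106). In bFGF/EGF, Itga6 made up 43.2% ± 1.2, Itga4 18.7% ± 4.1, Itgav 16.2% ± 1.2 and Itga7 11.6% ± 4.1 of the alpha subunits (SD, n = 3). In bFGF/BMP4, Itgav was the first with 54.6% ± 5.9 and Itga6 the second with 34.9% ± 5.4, and Itga4 and Itga7 were at 0.309% ± 0.068 and 0.930% ± 0.257 (SD, n = 3). In BMP4, Itga6 was again the first with 48.2% ± 2.9, and Itgav (16.6% ± 1.2) and Itga7 (12% ± 2.1) were near their bFGF/EGF shares. Itga3 followed there with 7.85% ± 1.16, Itga2 with 6.20% ± 0.44 and Itga1 with 5.76% ± 0.56 (SD, n = 3). The collagen receptor subunits Itga1 and Itga2 each were under 0.5% in bFGF/EGF.

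The beta subunits shifted less. Itgb1 made up 87.2% ± 0.9, 82.4% ± 1.7 and 79.4% ± 1.9 of the beta subunits in bFGF/EGF, bFGF/BMP4 and BMP4 (SD, n = 3). Itgb5 was at 4.40% ± 1.51, 11.9% ± 2.3 and 7.90% ± 1.05, and Itgb8 at 8.32% ± 0.85, 4.76% ± 0.76 and 12.5% ± 2.0. Itgb3 stayed under 1.1% of the beta subunits in every library, although its share in bFGF/BMP4, 0.861% ± 0.152, was above that of every other library. An exact permutation test, two-sided, cannot go below p = 0.1 with 3 libraries against 3, and over the 57 share comparisons the smallest adjusted value was 0.143, so no share could pass. The shares of a library add up to the whole and are not independent of each other.

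**Figure D3:**
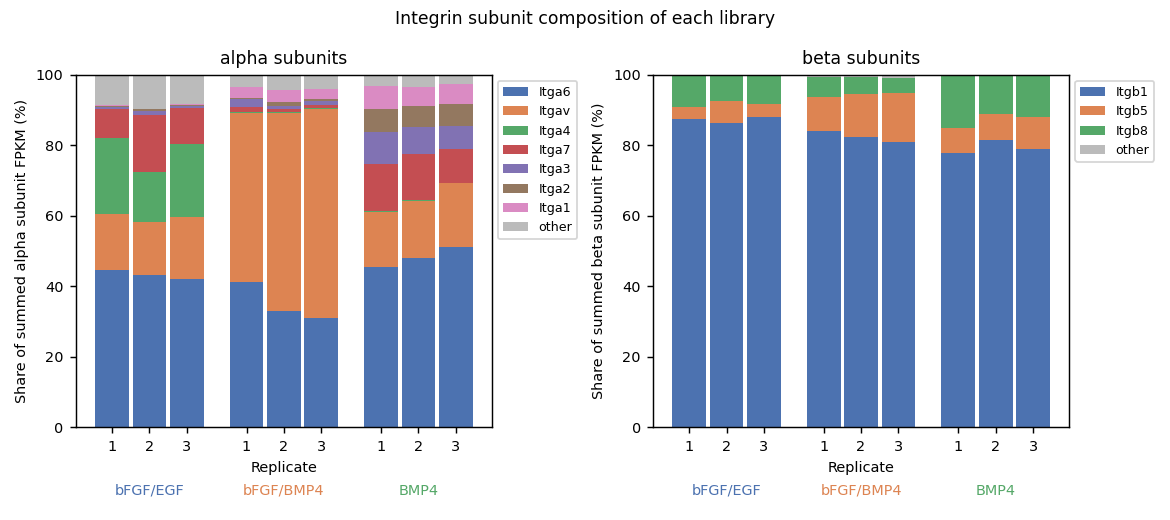
Stacked bars of the share of each subunit in the summed FPKM of the 12 alpha subunits (left) and of the 7 beta subunits (right), as a percent, with 1 bar for each of the 9 libraries. Itgav takes 48.0% to 59.5% of the alpha subunits in the bFGF/BMP4 libraries and 15.1% to 18.0% in the others, and Itga4 takes 14.0% to 21.5% in the bFGF/EGF libraries and at most 0.388% in the others.

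Talins and kindlins switch integrins on from inside the cell, and vinculin ties them to actin. Of the talins, kindlins and vinculin none of the 4 tested passed the threshold in any comparison, and with the adjusted p alone 1 to 2 did in each. Tln1, the main talin that binds the beta subunit's tail, was at 22.9 to 26.4 FPKM in bFGF/EGF, 20.0 to 23.5 in bFGF/BMP4 and 14.6 to 19.8 in BMP4, at most 1.36-fold apart between means. Fermt2, the kindlin of most tissues that acts with talin, came nearest to the threshold. It was at 30.8, 32.1 and 34.3 FPKM in bFGF/EGF, 65.3, 58.6 and 57.2 in bFGF/BMP4 and 64.6, 64.1 and 65.0 in BMP4, so that both treated groups lay above bFGF/EGF without overlap. Its log2 fold changes of 0.89 and 0.99 had adjusted p of 5.2e-05 and 1.8e-05 (limma) and were just under 2-fold; without replicate 3 of bFGF/EGF the second was 1.03 and passed. Vcl (vinculin) was at 5.23, 5.43 and 5.28 FPKM in bFGF/EGF, 4.98, 4.18 and 4.46 in bFGF/BMP4 and 11.3, 5.19 and 8.85 in BMP4. The BMP4 libraries of Vcl were spread widely, and replicate 2 was at the bFGF/EGF level. From bFGF/BMP4 to BMP4 the difference of Vcl was 0.82 on the log2 scale (SE 0.24, adjusted p = 0.035, limma), and without replicate 2 of BMP4 it was 1.13 and passed the threshold. Vcl shares 24.6% of its exon bases with Ap3m1 on the opposite strand (14.9 FPKM on average). Tln2, the talin of heart and brain, had overlapping groups with means of 6.21, 7.33 and 8.31 FPKM.

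The ILK complex, a scaffold of ILK, parvin and a PINCH protein that binds the beta subunit's tail, gave 1 call over the 3 comparisons. Lims1, the more widespread PINCH gene, had means of 39, 39.7 and 30.5 FPKM, and Parva 7.14, 9.23 and 8.24 FPKM, with no change past 2-fold. Lims2, the other PINCH gene, was low and rose in BMP4: it was at 0.115, 0.165 and 0.203 FPKM in bFGF/EGF, 0.305, 0.362 and 0.489 in bFGF/BMP4 and 0.564, 0.646 and 0.614 in BMP4. The groups did not overlap, and the log2 fold change in BMP4 compared with bFGF/EGF was 1.45 (SE 0.29, adjusted p = 0.0018, limma). In bFGF/BMP4 it was 0.89, and it passed the threshold without replicate 3 of bFGF/EGF (1.00) or replicate 1 of bFGF/BMP4 (1.01). Ilk was listed at only 0.376 to 0.866 FPKM, far below its partners, with no change. Its exons share 77.4% of their bases with Taf10 and 13.0% with Rrp8, both on the opposite strand and at 13.7 and 7.02 FPKM on average, and how fragments in shared bases were assigned is not stated.

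The kinases FAK and Src signal from adhesions through docking proteins, and among them Src and Bcar1 differed stepwise, in opposite directions. Ptk2, the focal adhesion kinase FAK, had means of 15.0, 9.99 and 9.17 FPKM; both treated groups were below bFGF/EGF without overlap, by less than 2-fold (log2 fold changes -0.57 and -0.70, adjusted p = 0.0025 and 6.1e-04, limma). Src, the kinase that joins active FAK, was at 45.4, 53.1 and 40.1 FPKM in bFGF/EGF, 27.7, 27.2 and 27.8 in bFGF/BMP4 and 16.4, 15.8 and 17.0 in BMP4. The groups were ordered without overlap, and Src fell in BMP4 compared with bFGF/EGF (log2 fold change -1.48, SE 0.12, adjusted p = 3.6e-06, limma), with -0.73 from bFGF/EGF to bFGF/BMP4 and -0.75 from there to BMP4. Bcar1, the Cas docking protein that Src phosphorylates, went the other way, at 15.8, 20.5 and 15.5 FPKM in bFGF/EGF, 31.2, 28.3 and 24.1 in bFGF/BMP4 and 52.7, 52.7 and 48.8 in BMP4. Its rise in BMP4 compared with bFGF/EGF was 1.58 (SE 0.14, adjusted p = 8.3e-06, limma), and the steps of 0.69 and 0.89 were each under 2-fold.

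Nedd9, a second Cas docking protein, rose the most of the adhesion proteins. It was at 2.44, 3.53 and 2.20 FPKM in bFGF/EGF, 23.1, 36.2 and 26.1 in bFGF/BMP4 and 38.9, 43.4 and 40.8 in BMP4. It was 10.5-fold and 15.1-fold above bFGF/EGF between means (log2 fold changes 3.34 and 3.89, SE 0.20, adjusted p = 1.0e-06 and 3.0e-07, limma), and the difference between the treated groups, 0.55, did not pass (adjusted p = 0.084). In level Nedd9 went from well below Bcar1 in bFGF/EGF to a range that overlapped Bcar1 in bFGF/BMP4, and in BMP4 it was again below Bcar1 without overlap (at most 43.4 FPKM, with Bcar1 at 48.8 or more). Pxn (paxillin), the adaptor that recruits FAK to adhesions, was at 9.44, 12.1 and 11.5 FPKM in bFGF/EGF, 7.88, 6.77 and 6.72 in bFGF/BMP4 and 19.0, 14.4 and 18.4 in BMP4. The bFGF/BMP4 libraries were the lowest and the BMP4 libraries the highest, with a log2 fold change of 1.26 between them (SE 0.15, adjusted p = 2.2e-04, limma), and both differed from bFGF/EGF by less than 2-fold (-0.62 and 0.64). Tgfb1i1 (Hic-5), the paxillin relative induced by TGF-beta in other cells, was at 2.15, 3.05 and 1.86 FPKM in bFGF/EGF, 0.312, 0.117 and 0.219 in bFGF/BMP4 and 0.673, 0.696 and 0.510 in BMP4. It was lowest in bFGF/BMP4 as Pxn was, but fell in both treated groups (log2 fold changes -2.98 and -1.74, SE 0.31, adjusted p = 3.3e-05 and 8.5e-04, limma). Its rise from bFGF/BMP4 to BMP4 was 1.24 (adjusted p = 0.016) and was lost without replicate 2 of bFGF/BMP4 (0.99) and without replicate 1 or 2 of BMP4 (1.19 and 1.17).

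Zyx and the tensins, which sit where adhesions meet actin, changed in opposite directions. Zyx (zyxin), a LIM protein that is recruited under tension, was at 26.5, 31.9 and 24.8 FPKM in bFGF/EGF, 5.31, 4.40 and 5.89 in bFGF/BMP4 and 6.57, 7.14 and 5.73 in BMP4. Both treated groups were well below bFGF/EGF (5.33-fold and 4.28-fold between means, log2 fold changes -2.39 and -2.08, SE 0.15, adjusted p = 1.4e-06 and 2.4e-06, limma) and overlapped each other. Tns3, the most abundant tensin, was at 16.3, 15.9 and 14.3 FPKM in bFGF/EGF, 43.9, 45.8 and 43.6 in bFGF/BMP4 and 42.8, 37.8 and 41.3 in BMP4. It rose in both treated groups (log2 fold changes 1.52 and 1.39, SE 0.10, adjusted p = 1.8e-06 and 2.3e-06, limma). Tns1 had means of 1.15, 3.74 and 2.73 FPKM and rose in both as well (1.62 and 1.16). Tns2 had means of 0.382, 0.646 and 1.40 FPKM and rose in BMP4 compared with bFGF/EGF (1.63, SE 0.27, adjusted p = 6.0e-04, limma). Between the treated groups Tns2 differed by 0.99, and it passed the threshold without replicate 1 of bFGF/BMP4 (1.05) or replicate 2 of BMP4 (1.15). Zyx shares 15.4% of its exon bases with Epha1 (0.098 FPKM), and Tns2 13.6% with Spryd3 (9.65 FPKM), both on the opposite strand.

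The promoter of Zyx is shown as that of the fallen adhesion protein with an AP-1 match, in capitals, which begins at position -121 from the start. It is at chr6:42349578-42349877 on the plus strand of GRCm38.p6 (RefSeq), with 68.3% G or C.
Zyx: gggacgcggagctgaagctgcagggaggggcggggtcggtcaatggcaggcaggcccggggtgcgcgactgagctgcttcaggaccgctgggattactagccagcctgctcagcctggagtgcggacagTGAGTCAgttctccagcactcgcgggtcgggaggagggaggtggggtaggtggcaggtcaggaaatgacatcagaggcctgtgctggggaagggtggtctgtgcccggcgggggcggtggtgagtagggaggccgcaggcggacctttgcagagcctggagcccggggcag

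Sorted by which group stood apart at the threshold from both others, 5 genes were highest in bFGF/EGF (Itga4, Itga5, Itga8, Tgfb1i1 and Zyx) and 4 lowest there (Itga1, Nedd9, Tns1 and Tns3), which is 15.2% and 12.1% of the 33 tested beside 10.7% and 12.7% of all genes tested. In bFGF/BMP4, Itgav and Itgb3 were the highest and Itga7 and Tgfb1i1 the lowest, 2 genes each or 6.06%, beside 2.01% and 1.91% of all genes. In BMP4, Itga2 and Itga3 were the highest and Itga4 and Itga9 the lowest, again 2 genes each, beside 6.01% and 2.75% of all genes. Itga4 and Tgfb1i1 each stood in 2 of these groups, since they differed in all 3 comparisons.

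**Figure D4:**
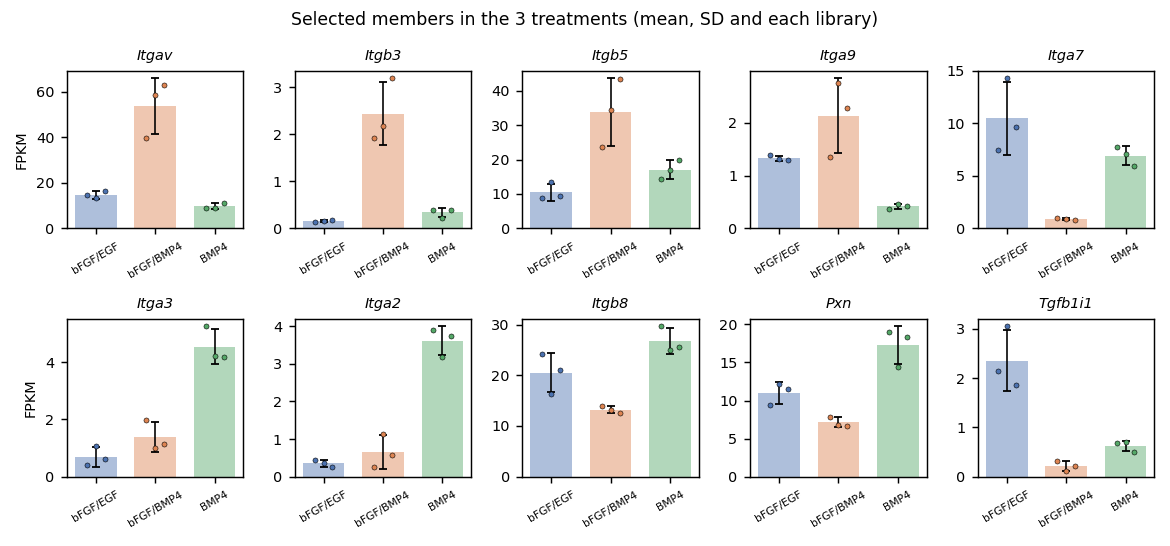
FPKM of 10 genes on linear axes, with bars for the mean of 3 libraries, error bars for the SD and points for the libraries. In bFGF/BMP4, Itgav has a mean of 53.8 FPKM against 9.71 in BMP4, and Itga7 a mean of 0.886 FPKM against 6.93 in BMP4.

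Of 69 other adhesion site proteins listed, 66 were tested, with 13 higher and 10 lower in bFGF/BMP4 than in bFGF/EGF (19.7% and 15.2%, beside 16.5% and 14.1% of all genes), 17 higher and 7 lower in BMP4 compared with bFGF/EGF (25.8% and 10.6%, beside 21.3% and 15.4%), and 10 higher and 3 lower between BMP4 and bFGF/BMP4 (15.2% and 4.55%, beside 8.41% and 5.14%). Their median log2 fold changes were 0.03, 0.31 and 0.07. Kank1, which couples talin to microtubules near adhesions, had means of 1.47, 73.4 and 23.8 FPKM and the largest rise of the list in both treated groups (log2 fold changes 5.54 and 3.94, SE 0.21, adjusted p = 6.9e-08 and 3.1e-07, limma). Fhl2, a LIM protein that binds integrin tails, had means of 1.49, 0.0682 and 0.292 FPKM and fell in bFGF/BMP4 (adjusted p = 4.5e-05, limma). Between BMP4 and bFGF/BMP4, the actin crosslinker Actn1 (5.46, 4.34 and 21.1 FPKM) and Pdlim7 (4.57, 2.33 and 12.4 FPKM), a PDZ and LIM protein, rose the most, by 2.26 and 2.35 (adjusted p = 3.6e-05 and 8.8e-06, limma).

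Integrin ligands are laid down by the cells themselves or come with the substrate. Of 36 listed, 33 were tested: 9 were higher and 14 lower in bFGF/BMP4 than in bFGF/EGF (27.3% and 42.4%, beside 16.5% and 14.1% of all genes), and 11 higher and 11 lower in BMP4 compared with bFGF/EGF (33.3% each, beside 21.3% and 15.4%). Between BMP4 and bFGF/BMP4, 13 were higher and 1 lower (39.4% and 3.03%, beside the 8.41% and 5.14% of all genes). The medians were -0.47, 0.07 and 0.81. Lamb2, a laminin beta chain, had means of 2.02, 31.0 and 38 FPKM (log2 fold change 3.92 in bFGF/BMP4, SE 0.20, adjusted p = 4.4e-07, limma). Lama4, a laminin alpha chain of vessels, had means of 2.24, 0.0782 and 0.0118 FPKM (log2 fold changes -3.71 and -4.36). It is among the lower ligands counted above, but it passed the filter on low values only through bFGF/EGF, so its differences are given without a test. Ccn2, a matricellular ligand, had means of 4.68, 15.2 and 94.9 FPKM and rose in BMP4 (4.32, SE 0.49, adjusted p = 4.5e-05, limma). Spp1 (osteopontin), a ligand of Itgav and Itga9 receptors, had means of 27.9, 2.76 and 20.0 FPKM, lowest in bFGF/BMP4, where Itgav was highest; from bFGF/BMP4 to BMP4 it rose by 2.78 on the log2 scale (SE 0.17, adjusted p = 6.9e-06, limma). Ltbp1, which holds latent TGF-beta in the matrix, was the 1 ligand gene lower in BMP4 than in bFGF/BMP4. It had means of 5.38, 11.9 and 0.538 FPKM and a log2 fold change of -4.26 (SE 0.20, adjusted p = 1.5e-06, limma), the same order of groups as Itgav. Of 7 other integrin subunits, most of them of blood cells, 3 were tested. Itga2b (0.649, 0.222 and 0.923 FPKM) fell in bFGF/BMP4 (-1.32, adjusted p = 0.013, limma) and was higher in BMP4 than in bFGF/BMP4 (1.78). Itgb2 (0.0662, 0.0068 and 0.349 FPKM, from at most 5, 1 and 26 fragments a library) was highest in BMP4, and it passed the filter on low values only through that group, so its difference is given without a test.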

How the data were processed

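RNA was measured by bulk RNA-seq in 9 libraries (3 treatments, 3 libraries each). The authors cleaned reads with fastp 0.19.7, aligned them to mm39 with HISAT2 2.0.5, and deposited FPKM values. featureCounts 1.5.0-p3 is named in the submitters' processing notes, and the program that made FPKM, the annotation release and the use of strand are not given in the sources used here. Of 55414 Ensembl identifiers, 54749 were found in GENCODE vM39, from which exon overlaps were taken. Fragment numbers were rebuilt from FPKM for all 30860 genes above 0 (largest distance from a whole number 0.00013). They are the smallest numbers that fit and are fixed only up to a whole factor per gene, so their sum is a lower bound of the depth. They also served for an alternative, and the few printed show counting error only.

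Differences were tested with limma 3.58.1 (R 4.3.3, trend) on log2(FPKM + 0.1) with all libraries in the fit, for the 20207 genes whose mean FPKM was 0.1 or more, with Benjamini-Hochberg adjustment over them. The threshold was an adjusted p of at most 0.05 with at least a 2-fold change. limma took the place of the study's count-based test because the deposited values are FPKM; the counts that accompany the study's article were not used here. Subunit shares were compared with exact permutation tests (scipy 1.17.1, Python 3.11.15). The method was tested on simulated data. Alternatives tried were no filter on low values, a filter at a mean FPKM of 1, a pseudocount of 1, TPM, median-ratio scaling, limma-voom on rebuilt fragments, a replicate block, only the groups compared, other thresholds, and each library left out in turn. Alternatives for the counts of genes highest or lowest in 1 group were added after the data were seen. The genes and lists were chosen with earlier results of these data known. All 38 genes are named, and in the other lists the 2 called genes with the largest change per comparison, except a gene that is not reported here; marker genes are named where their level bears on a member.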

Additional observations from a re-analysis of the deposited data

How the results depend on the processing

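The filter at a mean FPKM of 1 left out Itgb3 (mean 0.976 FPKM), Itga8, Itga10, Lims2 and Tns2, so their calls were not tested there. Of 99 gene comparisons 40 passed the threshold, and 30 of these passed under each of the 19 alternatives that tested the gene. The other 10 were lost under some: with a pseudocount of 1 for Itga8 (-0.83 and -0.67), Itga9 (-0.72), Lims2 (0.47), Tns1 (0.79), Tns2 (0.79) and Itga4 (-0.31), and for Itga10, Itgb8 and Tgfb1i1 (0.28, 0.97 and 0.42) there and under the alternatives given in the report. Another 25 comparisons passed under some alternative, most with the adjusted p alone. With the adjusted p alone, the genes higher and lower were 13 and 10 in bFGF/BMP4 and 14 and 11 in BMP4 against bFGF/EGF, and 7 were lower between BMP4 and bFGF/BMP4 (7 with a fold of 1.5 too); the other adhesion proteins gave 26 and 18, 27 and 18, and 18 and 8, and 2 ligands were lower between BMP4 and bFGF/BMP4. With a pseudocount of 1, ligands higher and lower were 5 and 8 in bFGF/BMP4 against bFGF/EGF, 7 were lower in BMP4 against bFGF/EGF, and 7 were higher in BMP4 against bFGF/BMP4. The median over the genes became 0.059 (bFGF/BMP4 against bFGF/EGF) and 0.10 (BMP4 against bFGF/BMP4) with no filter, and 0.19 with a pseudocount of 1 and 0.21 with a mean FPKM of at least 1 (BMP4 against bFGF/EGF). With a library left out, the latter ran from 0.22 (without replicate 1 of BMP4) to 0.44, and the first from 0.10 (without replicate 2 of bFGF/BMP4) to 0.34. The groupings by highest or lowest group, with alternatives chosen after seeing the data, held 1 to 6 genes with a library left out. Under the other alternatives the genes lowest in bFGF/EGF went from 4 to 10 (adjusted p alone, or a fold of 1.5) and 7 (limma-voom), those lowest in BMP4 from 2 to 5 (the same thresholds) and 0 (pseudocount of 1), those highest in BMP4 from 2 to 6 and 5, those lowest in bFGF/BMP4 from 2 to 4 and 1 (pseudocount of 1), and those highest in bFGF/BMP4 from 2 to 1 (the filter at 1 FPKM). The TPM scale gave 5 higher and 5 lower between BMP4 and bFGF/BMP4. Leaving out libraries turned Lims1 to -0.16 (without replicate 2 of bFGF/EGF) and Tln2 to -0.021 (without replicate 1 of BMP4, with 0.412 without replicate 2), neither past the threshold. The share differences of BMP4 against bFGF/EGF ranged from -0.252 to 1.081 percentage points for Itgav and from -1.242 to 2.732 for Itga7. The cause of these moves was not tested.

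Deviations from the group means were weakly correlated between libraries with the same replicate number (-0.084 to 0.125 over 9 pairs, 1 of them over 0.1). Pairs with different numbers had correlations of -0.154 to 0.081. With 3 libraries a group, these values cannot show whether the numbers mark a shared isolation or batch. With a replicate block the log2 fold change of Itga10 in bFGF/BMP4 (1.11) no longer passed, and no other gene of the list changed its call. Shares from rebuilt fragment numbers were not run, because the whole factor of a gene does not cancel between genes. With 3 libraries a group, the precision rests on their spread.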
